A study of Mus musculus with 36 samples.

Results

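The cochlear connexin gap junction genes described here are Gjb2, Gjb6, Gjb1, Gja1, Gja4, Gja5, Gjc1 and Gjc3. They were chosen by name, as 8 of the 39017 genes in a table of read counts, with Ensembl identifiers matched to mouse symbols. The libraries came from cochleae of CBA/Sca mice aged 12 weeks, with no transgene or mutant allele given in the labels, that had undergone either a sham operation or removal of the adrenal glands (adrenalectomy, ADX). Sampling ran from CT04 to CT24 (circadian time in hours) in steps of 4 h, and each of the 12 combinations of surgery and time had 3 libraries, or 36 in all. The labels give neither the number of animals behind a library nor the interval since surgery, so p-values measure only the spread between these libraries, which may be partly technical. The series asks how circulating adrenal hormones bear on the daily course of cochlear transcripts.

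Connexins are membrane proteins that assemble into hexameric hemichannels, and hemichannels of neighbouring cells dock to form gap junctions through which ions and small metabolites pass. In the cochlea, the products of Gjb2 and Gjb6 join supporting cells of the sensory epithelium, and fibrocytes and basal and intermediate cells of the lateral wall, into networks that carry potassium away from the hair cells and share metabolites, and mutations of either gene cause inherited deafness. Gjb1 and Gjc3 encode connexins of myelinating Schwann cells, Gja1 the main connexin of bone-forming cells, astrocytes and fibroblasts, Gja4 and Gja5 connexins of arterial endothelium, and Gjc1 a connexin of vascular smooth muscle and cardiac conduction tissue.

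Gjb2 and Gjb6 lie next to each other on the minus strand of chromosome 14 (GRCm38), and their promoters are shown because these were the most abundant members and moved together across libraries. Gjb2 spans chr14:57098600-57104702 and Gjb6 chr14:57123303-57133611, with a gap of 18600 bases that holds 1 annotated gene. The windows below, from RefSeq on GRCm38.p6, are the 250 bases just upstream of the annotated transcription start. They cover chr14:57104703-57104952 for Gjb2, chr14:57133612-57133861 for Gjb6 and, on the plus strand, chr10:56377050-56377299 for Gja1, which had the smallest p of the 8 at a single time. All are written in the direction of transcription, and capitals mark matches on either strand to the GC box GGGCGG.
Gjb2: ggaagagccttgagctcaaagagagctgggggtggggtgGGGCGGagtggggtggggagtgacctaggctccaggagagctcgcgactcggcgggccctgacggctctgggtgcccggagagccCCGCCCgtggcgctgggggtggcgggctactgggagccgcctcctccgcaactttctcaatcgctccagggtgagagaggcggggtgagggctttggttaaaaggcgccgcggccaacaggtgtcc
Gjb6: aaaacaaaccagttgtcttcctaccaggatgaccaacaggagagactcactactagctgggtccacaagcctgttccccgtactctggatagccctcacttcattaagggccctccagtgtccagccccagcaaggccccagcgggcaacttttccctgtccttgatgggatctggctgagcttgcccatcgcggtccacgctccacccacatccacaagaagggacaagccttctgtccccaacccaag
Gja1: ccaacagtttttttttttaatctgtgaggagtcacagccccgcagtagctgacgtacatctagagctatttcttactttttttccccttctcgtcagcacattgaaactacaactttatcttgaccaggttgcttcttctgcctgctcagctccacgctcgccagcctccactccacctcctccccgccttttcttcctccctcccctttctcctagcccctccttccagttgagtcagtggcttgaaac
Windows were found for 7 of the 8 members, 10 windows in all. Besides the GC box, the E-box CACGTG and the D-box TTATGTAA of clock-controlled genes, the glucocorticoid response element (the palindrome of AGAACA and TGTTCT around 3 free bases) and the TATA box TATAAA were searched on both strands, and no match of one motif overlapped a match of another. The Gjb2 window held 2 GC boxes, a motif present in 32.7% of 32851 promoter windows of that length, whereas those of Gjb6 and Gja1 held none of the 5 motifs. Of the other members, Gja4 and Gja5 held 1 GC box each, and 1 of the 4 windows of Gjb1 held 3 GC boxes and a TATA box. None of the 10 windows held an E-box, D-box or glucocorticoid response element in these letters, motifs found in 6.02%, 0.819% and 0.00913% of all windows, which says only that these letters are absent there.

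Cochlear cell types were represented. All 9 listed markers of supporting cells, 7 of fibrocytes, 8 of stria vascularis and 8 of hair cells averaged at least 1 CPM. CPM are counts scaled to library size. Markers of other tissues were also abundant. In sham, summed markers had medians of 23685.9 CPM (erythroid cells), 7926.55 (neutrophils and precursors) and 2634.5 (middle ear epithelium). Medians were 6725.15 for fibrocytes, 1584.69 for stria vascularis, 717.03 for supporting cells and 675.663 for hair cells. Sums depend on the genes listed and do not give shares of cells. Total counts ranged from 18999408 to 28995197 in sham and from 20351081 to 28947793 in ADX libraries, and 22556 genes passed the filter on low counts. Depth also differed with time. It was 20351081 to 22682581 counts at CT12 and 23972100 to 28661791 at CT24. Libraries were pooled by 6, and the pool was not part of any test. If pools followed circadian time, the effects of time and pool cannot be told apart. Of 16 lists of cell type markers, 3 had a gene that differed between ADX and sham over the mean of the 6 times. In ADX, 2 of 8 osteoblast and osteocyte markers and 2 of 10 neutrophil markers were lower, and 1 of 8 B lymphocyte markers was higher. Of all genes tested, 0.718% differed. Every gene of these 3 lists went the same way as its called genes. Each had an unadjusted p under 0.05 in edgeR, as did 15.6% of all genes. Skeletal muscle genes were high in 3 libraries (ADX CT12 replicate 1, ADX CT16 replicate 2 and ADX CT20 replicate 3). The growth hormone gene Gh, a pituitary marker, was above 50 CPM in 5 libraries (sham CT08 replicates 2 and 3, sham CT16 replicate 3, and ADX CT24 replicates 1 and 2). Results for the 8 members that changed without these libraries are given with both values. Calls of single marker and pathway genes were not checked without them.

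All 8 members passed the filter. Expressed per length (RPKM, counts scaled by gene length and library size), Gjb6 had the highest mean, 363 ± 26.4 (SD, n = 36), and Gjb2 the next, 217 ± 19.19. Gja1 followed at 28.9 ± 3.98, Gjc3 at 13.6 ± 1.42 and Gjb1 at 8.67 ± 1.24 RPKM. Lowest were Gjc1 at 3.49 ± 0.397, Gja4 at 1.88 ± 0.273 and Gja5 at 0.977 ± 0.265 RPKM. Gjb2 and Gjb6 together made up 91.0% of the summed RPKM of the 8 genes on average (lowest library 89.0%, highest 92.7%). With the deposited lengths, the ranges of Gjb6 (318.9 to 415.5 RPKM) and Gjb2 (186.6 to 262.6) did not overlap, while those of Gjc3 (11.4 to 16.9) and Gjb1 (6.19 to 11.5), and those of Gja4 (1.46 to 2.50) and Gja5 (0.556 to 1.91), did.

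**Figure D1:**
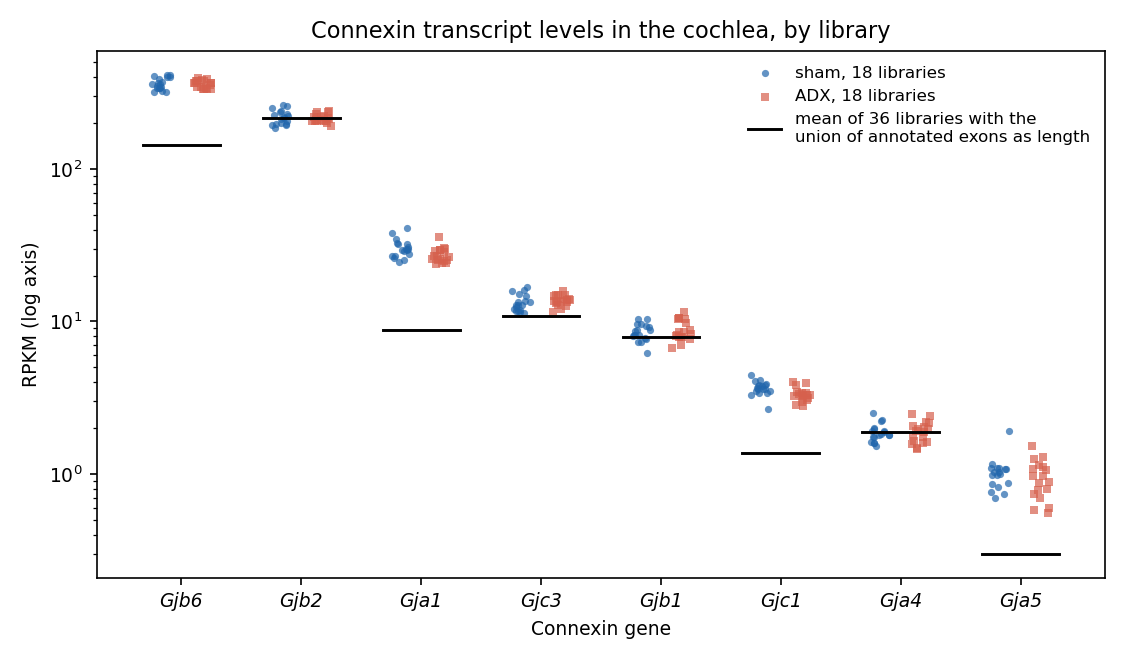
RPKM of the 8 connexin genes in each of 36 libraries (log axis), with sham as circles and ADX as squares, 18 each. Points use the deposited gene lengths and black bars give the mean with the union of annotated exons as length, which puts Gjb2 (217) above Gjb6 (144).

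This order depended on the length used for each gene. The deposited length of Gjb6, 1064.3 bases, equals the mean of 3 of its 4 annotated transcripts (201, 887 and 2105 bases), whereas all its annotated exons together span 2674 bases. With such exon unions, an alternative chosen after the data were seen, mean levels were 217 RPKM for Gjb2, 144 for Gjb6, 10.9 for Gjc3, 8.73 for Gja1, 7.89 for Gjb1, 1.88 for Gja4, 1.36 for Gjc1 and 0.299 for Gja5. Gjb2 then ranked above Gjb6, Gjc3 above Gja1 and Gja4 above Gjc1, and the share of Gjb2 and Gjb6 together was 92.1%. Which of Gjb2 and Gjb6 is the more abundant transcript is therefore not settled by these counts, whereas their place above the other 6 members held with both lengths.

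Gjb2 and Gjb6 were the steadiest members across libraries. In sham, Gjb2 had a lowest value of 449, a median of 523 and a highest of 632 CPM, and in ADX the values were 460, 510 and 578 CPM. Gjb6 ranged from 339 to 442 CPM around a median of 385 in sham and from 356 to 419 around 389 in ADX. For both genes the ADX range lay within the sham range, which reached further at both ends. The coefficient of variation over the 36 libraries was 7.29% for Gjb6 and 8.82% for Gjb2, against 10.5% for Gjc3, 11.4% for Gjc1, 13.8% for Gja1, 14.3% for Gjb1, 14.5% for Gja4 and 27.1% for Gja5. Low counts bring counting error into the spread of Gja5 (23 to 88 reads a library), Gja4 (58 to 95) and Gjc1 (105 to 233). The order of these coefficients therefore does not separate steadier levels from higher counts. In Gja5, 165 exon bases also overlap exons of Gpr89 on the other strand. Gja5 values are therefore uncertain, since the kit kept the strand but the strand setting of the counting was not given in the sources used here.

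Gjb2 and Gjb6 varied together from library to library. Between log2 CPM of Gjb2 and of Gjb6, Pearson r was 0.867 over 36 libraries, which share depth, dissection and cell makeup, so that r is given as a description. It was 0.897 in the 18 sham and 0.782 in the 18 ADX libraries, 0.91 after subtracting each group's mean, and 0.904 in the 28 libraries outside the muscle and Gh sets. Among 17710 genes with a mean of at least 1 CPM, Gjb6 was the most alike to Gjb2, and Gjb2 was the second most alike to Gjb6. The ratio of Gjb2 to Gjb6 counts was 1.36 ± 0.0650 in sham and 1.35 ± 0.0531 in ADX (SD, n = 18 each) and stayed between 1.24 and 1.47 in the 36 libraries. The scatter of the 2 genes thus formed a narrow band in which sham and ADX libraries intermixed.

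**Figure D2:**
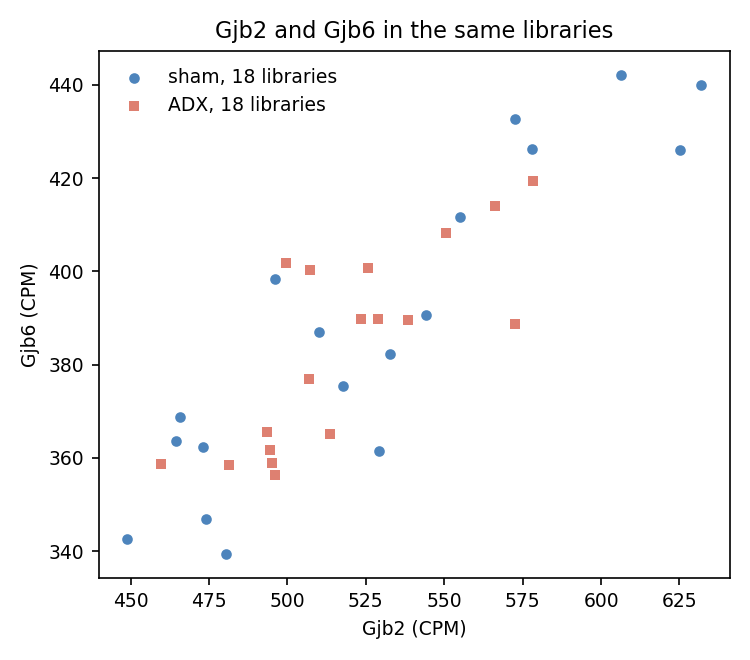
Gjb2 (x axis) against Gjb6 (y axis), both in CPM, with 1 point for each of 18 sham (circles) and 18 ADX (squares) libraries. Libraries with more Gjb2 had more Gjb6 (r = 0.867 on the log2 scale), and neither axis separates sham from ADX.

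Some other genes had r nearly as high, and Cnn3 with Gjb6 a higher one. After Gjb6, the genes most alike to Gjb2 were Sox10, a transcription factor of neural crest derivatives and inner ear epithelium (r = 0.841), and Afap1l2 (0.829). Gjb6 was most like Cnn3, an actin-binding calponin (0.876), and next after Gjb2 came Sdc4, a cell surface proteoglycan (0.855). Of the 16 marker lists, the summed CPM of stria vascularis markers had the highest r with both genes. For Gjb2 it was 0.785 (Spearman rho 0.711) and fell to 0.685 without the 2 libraries farthest from the median marker level, sham CT12 replicate 1 and sham CT20 replicate 2. For Gjb6 it was 0.729 (rho 0.69), and 0.684 without the same libraries. Those libraries were also high in Gjb2, at 632 and 625 CPM. Next for Gjb2 came fibrocytes (0.637) and arterial endothelium (0.603), with hair cells at 0.56 and supporting cells at 0.439. Next for Gjb6 came arterial endothelium (0.65) and fibrocytes (0.599), with hair cells at 0.561 and supporting cells at 0.489. With the neutrophil and erythroid lists, r was -0.502 and -0.38 for Gjb2, and -0.458 and -0.446 for Gjb6. An r with a list therefore does not tell which cells carried a transcript. In bulk tissue, fewer cells of a type and less RNA per cell cannot be told apart, here or in any comparison that follows.

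The connexins of myelinating Schwann cells, Gjb1 and Gjc3, tracked each other and the myelin genes. Gjb1 ranged from 9.62 to 16.18 CPM (median 13.1) in sham and from 10.3 to 17.8 (median 13.0) in ADX. Gjc3 ranged from 40.2 to 59.5 CPM (median 45.0) in sham and from 40.6 to 55.8 (median 48.4) in ADX. Sham and ADX overlapped widely for both genes. Pearson r between Gjb1 and Gjc3 was 0.744 over the 36 libraries, 0.754 in sham and 0.806 in ADX. The highest r with any marker list was that with peripheral myelin for both, 0.785 for Gjb1 (rho 0.802; 0.767 without the 2 libraries farthest from the median) and 0.766 for Gjc3 (rho 0.771; 0.778). Single genes most alike to Gjb1 were Rtn3 (0.874), Rell2 (0.842) and Igfbp6 (0.835), and those most alike to Gjc3 included Ppp2r2c (0.865) and Tspyl4 (0.853). Gjc3 was also correlated with Gjb2 (0.621) and Gjb6 (0.601), whereas Gjb1 was less closely so (0.337 and 0.373, a difference that was not tested). With the neutrophil and erythroid lists, r was -0.554 and -0.558 for Gjc3, and -0.361 and -0.351 for Gjb1.

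No connexin differed in mean level between ADX and sham at the threshold. Over the mean of the 6 times, 0 of 8 members had an adjusted p under 0.05 in edgeR's quasi-likelihood test, where 0.718% of the genes tested (162) did. The log2 difference, ADX minus sham, was -0.03 ± 0.04 (SE) for Gjb2 and -0.02 ± 0.03 for Gjb6, and its median over the 8 members was -0.02 against 0.00 over all genes tested. As a percentage, Gjb2 differed by -1.72%, with a 95% interval of -7.16% to 4.04%, and Gjb6 by -1.29%, with an interval of -5.88% to 3.52%. Mean changes below -7.16% for Gjb2 or -5.88% for Gjb6 lie outside these intervals. For Gjb1 the difference was 3.103% (-6.02% to 13.1%) and for Gjc3 3.13% (-3.60% to 10.3%). For the arterial connexins the intervals were -8.11% to 9.64% for Gja4 and -22.0% to 7.12% for Gja5, the latter being the widest of the 8.

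Gja1 and Gjc1 had the smallest p-values of the 8. Gja1 differed by -0.15 ± 0.05 on the log2 scale, or -9.91% (95% interval -15.9% to -3.46%), with an unadjusted p of 0.0044 and an adjusted p of 0.12 in edgeR. Gjc1 differed by -0.15 ± 0.05, or -9.57% (-15.2% to -3.55%), with an unadjusted p of 0.0034 and an adjusted p of 0.11. These 2 of 8 members with an unadjusted p under 0.05 compare with 15.6% of all genes tested. Gja1 had a sham range of 76.5 to 127 CPM (median 92.1) and an ADX range of 74.2 to 111 (median 82.5). Gjc1 had a mean of 7.16 ± 0.739 CPM (5.22 to 8.70) in sham and 6.47 ± 0.661 (5.43 to 7.78) in ADX (SD, n = 18 each). For both genes the ranges overlapped, and the ADX mean was the lower at 5 of 6 times.

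**Figure D3:**
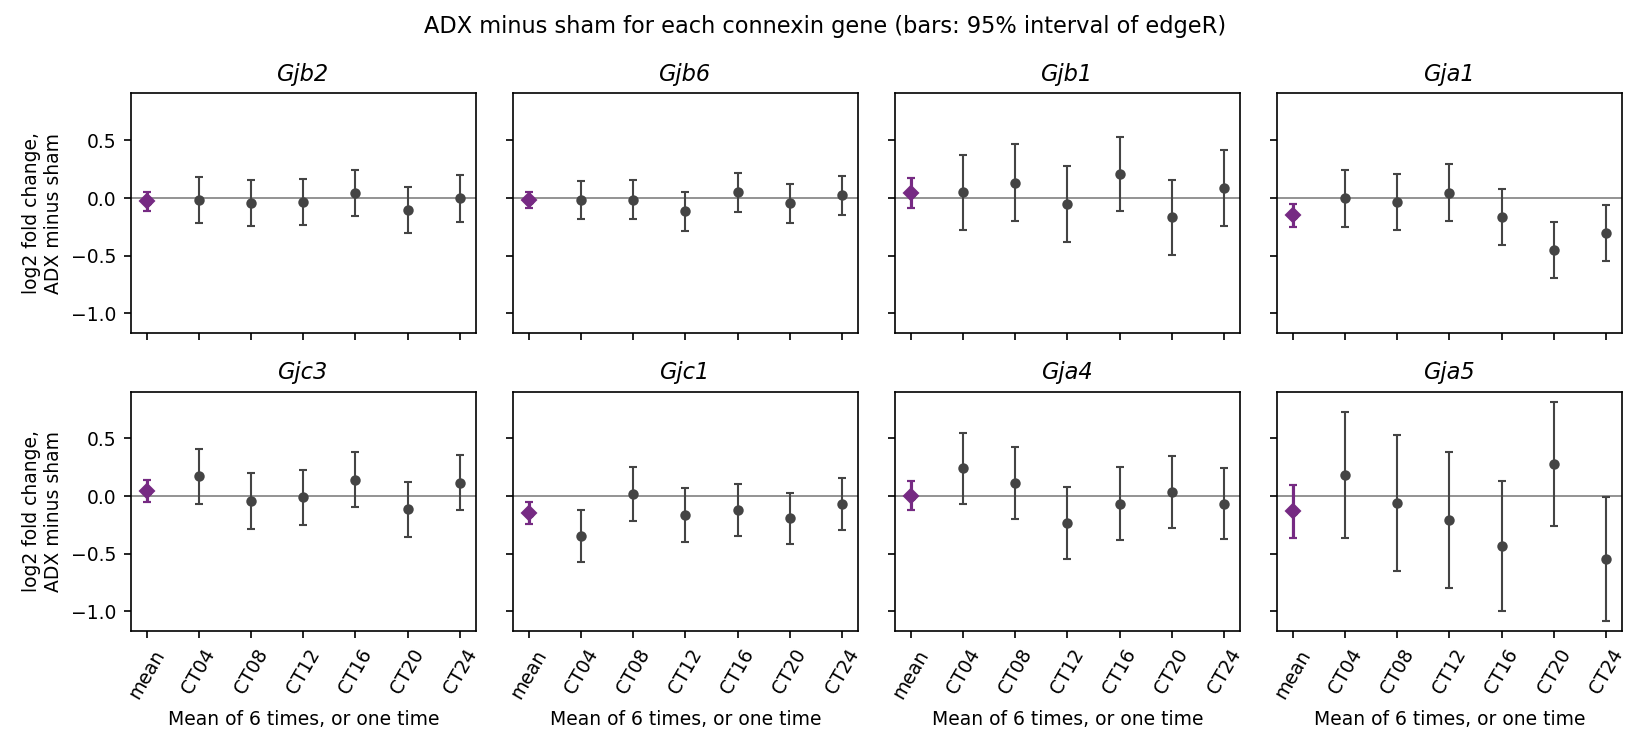
log2 fold change, ADX minus sham, of each connexin gene (y axis) over the mean of the 6 times (diamond) and at each circadian time (circles), with bars for the 95% interval from edgeR. The mean intervals of Gja1 and Gjc1 lie below 0 before adjustment, and the lowest point of Gja1 is at CT20 (-0.45).

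At single times, 0 of 8 members passed the threshold at any of the 6 times. The share of all genes that passed was 0% at CT04, CT08, CT12, CT16 and CT24 and 0.00443% (1 gene) at CT20, so these tests called almost nothing in the whole table. At an unadjusted p under 0.05 there was 1 member at CT04 (9.3% of all genes), 0 at CT08 (4.28%), CT12 (5.41%) and CT16 (7.95%), 1 at CT20 (7.49%) and 2 at CT24 (5.74%). DESeq2 called 77, 7, 20 and 183 genes at CT04, CT12, CT16 and CT20, of which Gja1 at CT20 was the only member.

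The member with the smallest single-time p was Gja1 at CT20. The 3 sham libraries had 100.6, 119 and 127 CPM, and the 3 ADX libraries 81.6, 94.2 and 78.0 CPM. Every ADX library was thus below every sham library, a separation in either direction seen for 9.25% of all genes at that time. The log2 difference was -0.45 ± 0.12, with an unadjusted p of 7.6e-04 and an adjusted p of 0.13 in edgeR. With DESeq2 the adjusted p was 0.0337 (log2 difference -0.45). In edgeR it was 0.0392 (-0.54) without sham CT20 replicate 1, 0.554 (-0.43) without sham CT20 replicate 2 and 0.485 (-0.37) without sham CT20 replicate 3. Without the 3 libraries high in muscle genes, which include ADX CT20 replicate 3, it was 0.359 (-0.39).

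At CT24 the 3 sham libraries had 81.2, 99.9 and 101.1 CPM of Gja1 and the ADX libraries 79.0, 75.4 and 74.2 CPM. The groups did not overlap here either (12% of all genes at CT24), and the log2 difference was -0.30 ± 0.12 (edgeR, adjusted p = 0.81). At CT04, CT08 and CT12 the groups overlapped, and differences lay between -0.03 and 0.05. At CT16 the sham libraries had 108, 93.3 and 83.5 CPM and the ADX libraries 74.5, 88.1 and 92.0, which overlapped (-0.16 ± 0.12). Whether the effect of surgery differed between times was tested directly. The interaction gave Gja1 an unadjusted p of 0.045 and an adjusted p of 0.97, and 0 of 8 members and 0% of all genes passed.

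Across libraries, markers of bone-forming cells varied with Gja1. The cochlea is encased in bone, and osteoblasts and osteocytes are joined by gap junctions of the Gja1 product. Of the 8 listed markers, none was at 0, all 8 were lower in ADX over the mean of the times (log2 differences from -0.41 to -0.12), and 2, the bone matrix genes Ibsp and Dmp1, passed the threshold. Their summed level was 944 to 2020 CPM (median 1122) in sham and 737 to 1290 (median 957) in ADX. At CT20 all 8 markers were again lower in ADX (median -0.49), and 0 passed. The marker median was also below 0 at CT04 (-0.09), CT08 (-0.18), CT12 (-0.20), CT16 (-0.13) and CT24 (-0.34), and 0 passed at each. At CT04, CT08 and CT12, Gja1 itself differed by -0.003, -0.03 and 0.05. The CT20 sums were 1117, 2020 and 1776 CPM in sham replicates 1 to 3, and 957, 1290 and 956 CPM in ADX replicates 1 to 3. The 2 libraries highest in Gja1, sham CT20 replicates 2 and 3, were also the highest in these markers. Across the 36 libraries, r between Gja1 and the summed markers was 0.785 (rho 0.751), 0.78 in sham and 0.659 in ADX, and it was 0.641 without those 2 libraries. The genes most alike to Gja1 were the collagen genes Col22a1 (0.832) and Col1a2 (0.826), the latter abundant in bone, and Prss35 (0.817). Other marker lists also went 1 way at CT20, with 0 passed in each. All 7 middle ear genes tested (median 0.75) and all 10 skeletal muscle genes (4.19) were higher in ADX. Of the 6 central myelin genes (median -0.48) and 8 stria vascularis genes (-0.21), 0 were higher. The parts of bone cells and of these other tissues in the Gja1 difference were not tested.

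**Figure D4:**
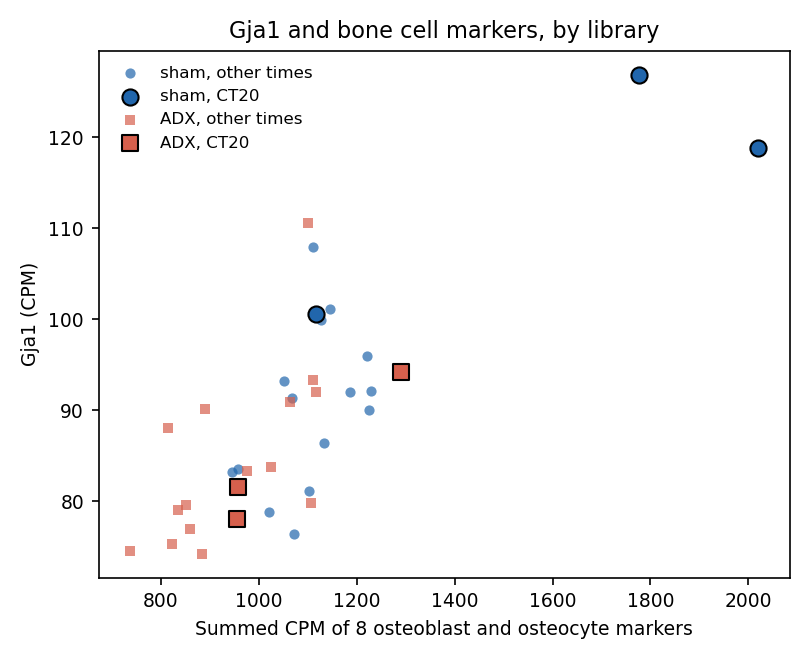
Summed CPM of 8 osteoblast and osteocyte markers (x axis) against Gja1 CPM (y axis) in 36 libraries, sham as circles and ADX as squares, with CT20 libraries outlined. Sham CT20 replicates 2 and 3 lie at the upper right, with 2020 and 1776 CPM of the markers and 119 and 127 CPM of Gja1.

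Gjc1 had its largest difference at CT04. The sham libraries had 7.01, 7.48 and 7.92 CPM and the ADX libraries 6.36, 5.56 and 5.76 CPM, without overlap (16.5% of all genes at that time), and the log2 difference was -0.34 ± 0.11 (edgeR, adjusted p = 0.31). At CT12 the sham libraries had 6.86, 6.82 and 6.66 CPM and the ADX libraries 6.14, 6.58 and 5.43, again without overlap (10.4% of all genes), with a difference of -0.17 ± 0.11. At the other 4 times sham and ADX overlapped. Genes most alike to Gjc1 were Noa1 (0.732), Mlx (0.702) and Mrpl32 (0.65), of which Noa1 and Mrpl32 encode mitochondrial proteins. The highest r of Gjc1 with a marker list was 0.371, with osteoblasts and osteocytes (0.449 in sham and -0.195 in ADX). With vascular lists it was -0.241 for smooth muscle and pericytes, -0.0764 for arterial endothelium and 0.104 for endothelium. Gja5 was low, and its unadjusted p of 0.048 at CT24 (-0.54 ± 0.26; adjusted p = 0.86 in edgeR) rested on sham CT24 replicate 1. The sham libraries had 3.36, 1.90 and 1.73 CPM there and the ADX libraries 1.39, 1.85 and 1.56, and without that replicate the difference was -0.19.

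The second question was whether connexin transcripts followed the time of day. A curve with a period of 24 h was fitted to sham and to ADX, and peak-to-trough sizes are log2 differences. In sham, 1 of 8 members, Gja1, passed the threshold, against 16.08% of all genes. In ADX, 0 of 8 passed, against 9.4%. A rhythm common to both surgeries was called for Gjc1 and Gja4, 2 of 8 members against 32.5% of all genes, a larger share in the whole table than among the members. The deafness connexins had no called 24 h rhythm, which does not show that they were constant. Peak-to-trough sizes were 0.07 ± 0.08 (SE) in sham and 0.09 ± 0.08 in ADX for Gjb2, and 0.11 ± 0.07 in both for Gjb6. Sham time means ran from 488 CPM (CT16) to 562 CPM (CT20) for Gjb2, and from 358 CPM (CT16) to 409 CPM (CT04) for Gjb6.

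**Figure D5:**
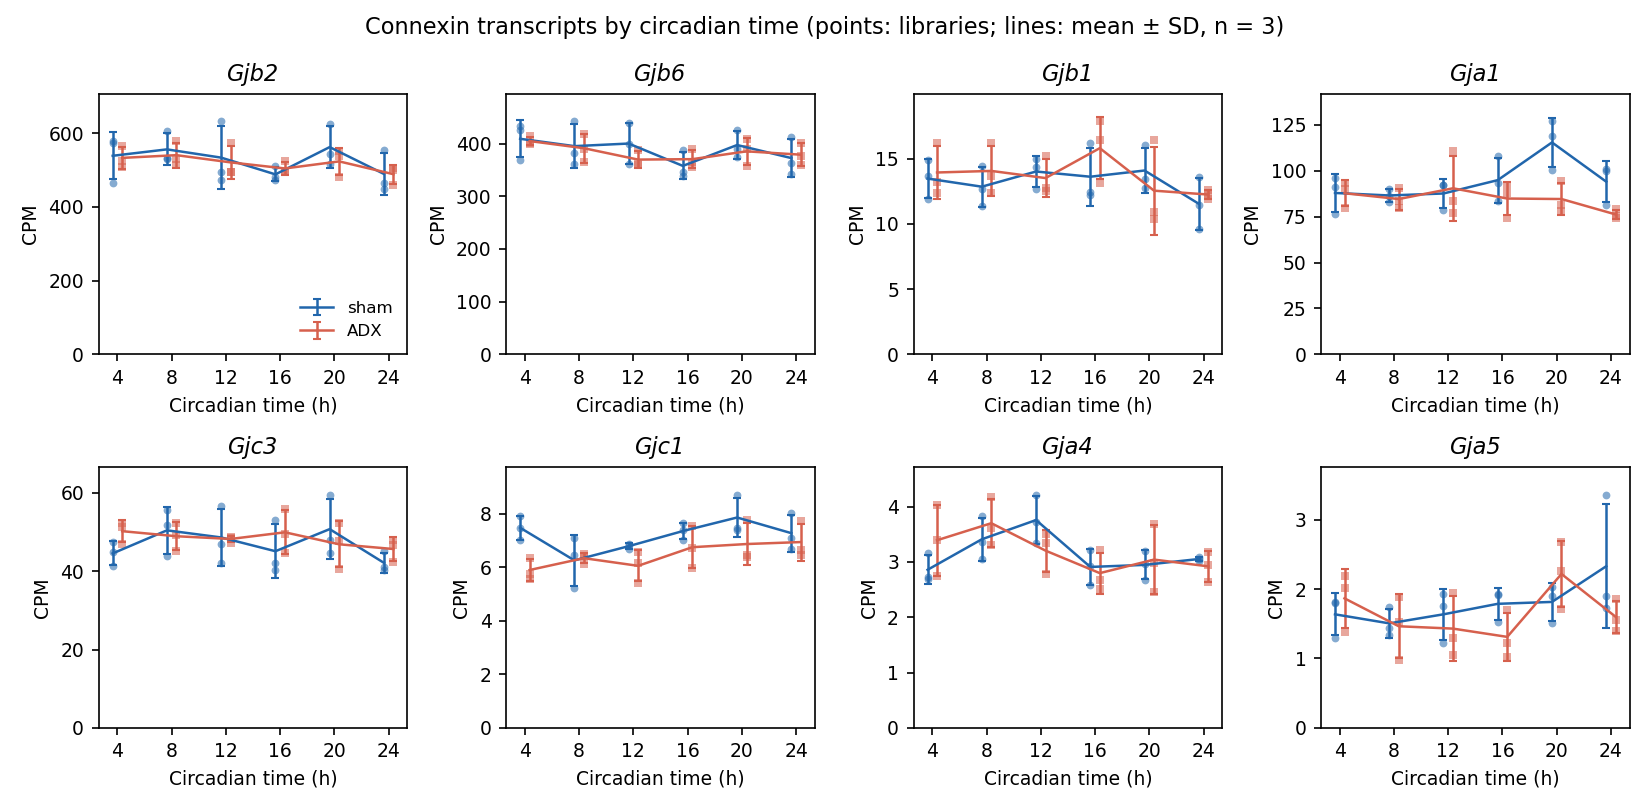
CPM of each connexin gene (y axes from 0) against circadian time in hours, with points for libraries and lines for the mean ± SD of 3 libraries, sham in blue and ADX in red. Gjb2 and Gjb6 had no called rhythm in either, and the Gja1 mean of sham stands out at CT20 (115 CPM, against 84.6 in ADX).

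The Gja1 curve in sham peaked at 19.9 h with a peak-to-trough size of 0.35 ± 0.10 (edgeR, adjusted p = 0.030). Mean levels in sham were 87.9 ± 10.2 CPM at CT04, 86.5 ± 3.44 at CT08, 87.6 ± 7.67 at CT12, 94.9 ± 12.29 at CT16, 115 ± 13.5 at CT20 and 94.1 ± 11.18 at CT24 (SD, n = 3). The level was thus nearly flat at the first 3 times and highest at CT20. In ADX the size was 0.15 ± 0.10 (adjusted p = 0.56), and time means ran from 76.2 to 90.5 CPM. The difference in rhythm between the surgeries had an unadjusted p of 0.0081 (3.57% of all genes were under 0.05) and an adjusted p of 0.9997. No member and 0% of all genes passed that test, so a loss of the Gja1 rhythm after adrenalectomy was not shown. The sham call was lost without sham CT20 replicate 3 (adjusted p 0.118), sham CT20 replicate 2 (0.0751) or sham CT08 replicate 1 (0.0552), and when any difference between the 6 times was tested in place of a 24 h curve (0.0634, a test that 16.19% of all genes passed). Of the 8 bone cell markers, 2 passed the rhythm test in sham, against 16.08% of all genes.

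Gjc1 peaked late in the circadian day in both surgeries. The sham curve had its maximum at 21.2 h and the ADX curve at 20.02 h. Their peak-to-trough sizes were 0.25 ± 0.09 and 0.21 ± 0.09, and the adjusted p for the common rhythm was 0.022 in edgeR (0.13 in sham and 0.27 in ADX alone). Gja4, whose product joins endothelial cells of small arteries, had earlier maxima, at 10.6 h (sham) and 7.07 h (ADX). Its sizes were 0.30 ± 0.13 and 0.34 ± 0.13 (adjusted p = 0.039 in edgeR, 0.20 in sham and 0.17 in ADX alone). Sham time means of Gja4 ran from 2.86 ± 0.264 CPM at CT04 to 3.76 ± 0.439 at CT12, and ADX time means from 2.80 ± 0.371 at CT16 to 3.70 ± 0.435 at CT08. The Gja4 call rested on few reads, 58 to 95 a library, and was lost in 12 of 36 fits that left out 1 library. Without the 5 libraries with Gh over 50 CPM, neither passed (adjusted p 0.0699 for Gjc1 and 0.0775 for Gja4). Without the 3 libraries high in muscle genes, Gja4 also passed in ADX alone (adjusted p 0.0333, size 0.50). Levels of Gja4 and Gjc1 were opposed across libraries, with r = -0.463. Gja4 was most like the endothelial phosphatase gene Ptprb (0.734), Ldlrad4 (0.714) and Fam214a (0.707). Of the marker lists, its highest r was with vascular smooth muscle and pericytes (0.572, rho 0.546, and 0.473 without the 2 libraries farthest from the median), while r was 0.355 with arterial endothelium and -0.00896 with the general endothelium list.

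Gja5 had fitted maxima at 22.1 h (sham) and 23.3 h (ADX), with sizes of 0.47 ± 0.23 and 0.50 ± 0.23, and missed the threshold for a common rhythm (adjusted p = 0.063). Its most alike genes were Fas (0.54), Fam198b (0.524) and the smooth muscle gene Cnn1 (0.504), the weakest likenesses of any member. Its highest r with a marker list was 0.349, with endothelium, and r was 0.0125 with arterial endothelium and 0.117 with vascular smooth muscle. The myelin connexins had no called rhythm, with adjusted p of 0.27 for Gjb1 and 0.46 for Gjc3 in the common test (edgeR). That test was passed by 8 of the 10 peripheral myelin markers and by 32.5% of all genes. The sizes were 0.17 ± 0.13 in sham and 0.21 ± 0.13 in ADX for Gjb1, and 0.14 ± 0.10 and 0.08 ± 0.10 for Gjc3.

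The remaining connexin genes were scarcely transcribed. Of 12, 4 passed the filter, among them Gjd2, a neuronal connexin, with a mean of 1.19 RPKM against 0.977 RPKM for Gja5. Both values use the deposited lengths, and with its exon union Gja5 had 0.299 RPKM. The RPKM values of genes named from here on have the same limit. None of the 4 differed over the mean of the times (edgeR; 0 at an unadjusted p under 0.05). Pannexins, which form membrane channels without junctions, were all tested, and 0 of 3 differed over the mean (2 had an unadjusted p under 0.05, against 15.6% of all genes). Panx2 had 19.4 RPKM and Panx1 10.1 RPKM. Panx2 and Panx3, a bone and cartilage pannexin, passed for a common rhythm (adjusted p 0.014 and 0.040, in a test that 32.5% of all genes passed), both named after their values were seen.

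Of 11 genes for connexin partners and trafficking, 0 differed over the mean (3 at an unadjusted p under 0.05, against 15.6% of all genes). The most abundant were Ctnnb1, which links cadherins to actin, at 544 RPKM, and Nedd4, a ubiquitin ligase acting on the Gja1 product, at 420 RPKM. The rhythm test was passed by 2 of the 11 in sham and 1 in ADX, against 16.08% and 9.4% of all genes. Sgsm3, which binds the Gja1 product, had a rhythm in both surgeries. Its peak-to-trough size was 0.18 ± 0.05 in sham (edgeR, adjusted p = 0.049) and 0.25 ± 0.05 in ADX (0.0079). Cnst, whose product consortin helps deliver connexins to the membrane, passed narrowly in sham (0.12 ± 0.04, adjusted p = 0.04996) and missed the threshold in ADX (adjusted p = 0.60), and 0 of the 11 passed the test of a difference in rhythm.

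Among 14 genes of cochlear potassium recycling, 0 differed over the mean of the times (2 at an unadjusted p under 0.05, against 15.6% of all genes). Atp1b2, a subunit of the sodium pump, had 483 RPKM. Slc12a7, a potassium-chloride cotransporter that takes up potassium into supporting cells, was rhythmic in sham (0.33 ± 0.07, peak 8.88 h, edgeR adjusted p = 0.0049). In ADX it missed the threshold (0.19 ± 0.07, adjusted p = 0.196). The rhythm test was passed by 1 of the 14 in sham and 0 in ADX, against 16.08% and 9.4% of all genes. The test of a difference in rhythm was passed by 0 of the 14. At CT12, 7 of the 14 had an unadjusted p under 0.05, against 5.41% of all genes, and 0 passed, with a median log2 difference of -0.24 against 0.00 over all genes. Stria vascularis markers, which share genes with this list, had negative differences at the same time (7 of 8 with an unadjusted p under 0.05, 0 passed, median -0.29). At CT16 the differences had the other sign, with 12 of the 14 potassium genes (median 0.07) and 7 of the 8 stria markers (median 0.11) higher in ADX, and 0 passed. At CT12 Gjb2 differed by -0.04 ± 0.10 and Gjb6 by -0.11 ± 0.08, with overlapping groups. The sham CT12 libraries had 440, 362 and 398 CPM of Gjb6 and the ADX libraries 389, 362 and 359 CPM.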

How the data were processed

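Stranded messenger RNA libraries made from total cochlear RNA were read as single 100-base reads, per the labels. The authors deposited 1 table of whole-number read counts per Ensembl gene with a gene length. Alignment used STAR 2.4.0i and mm10, per the submitters' processing notes, and the counting program was not given in the sources used here. In 30 of 36 columns the time in the name is 1 h earlier than in the labels, and the labels' times were used. Identifiers were matched to GENCODE M21 symbols for 37607 genes (96.4%).

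The counts were fitted with edgeR 4.0.16 (R 4.3.3) by TMM scaling, filterByExpr and the quasi-likelihood test, on 12 group means and on a mean, cosine and sine of 24 h per surgery, with all 36 libraries sharing 1 estimate of the spread. The filter left out 16461 genes holding 0.0779% of counts. P-values were adjusted by Benjamini-Hochberg over 22556 genes, with a threshold of 0.05. RPKM used the deposited lengths, and those of 62.3% of matched genes equal the mean of their annotated transcripts to within 0.5 base. Likeness is Pearson r of log2 CPM. Each library was counted as 1 replicate, since replicates differed by a chi-square per degree of freedom of 5.91 to 26.7. The scripts were tested on simulated data. The members and lists were chosen with earlier results of these data known. Named genes are the members, the 3 genes most alike to each, and, of 4 pathway lists, those past the threshold over the mean or for a rhythm in either surgery, and the 2 of highest RPKM. Some genes that this rule names are not reported here. Alternatives were DESeq2 1.42.0, its size factors, no filter, a replicate block, the column times, a 5-df test of time, and leaving out each library, the muscle-high libraries or the Gh-high libraries. Figures were drawn with matplotlib.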

Additional observations from a re-analysis of the deposited data

How the results depend on the processing

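Over the mean of the 6 times, 0 members passed under each of the 6 alternatives run and in the 36 fits that left out 1 library. The sign of the difference held for 7 members in all of them. For Gja4, whose main value was 0.01, it turned to -0.003013 with DESeq2, -0.02472 without the 3 muscle-high libraries and -0.04121 without the Gh-high libraries, and ranged from -0.02081 to 0.02699 when 1 library was left out (below 0 in 14 fits). The number of members called at CT20 rose from 0 to 1 with DESeq2 and was 0 to 1 on leaving out 1 library. In sham, the number of rhythmic members fell from 1 to 0 in the test of any difference between times and was 0 to 1 on leaving out 1 library. In ADX it rose from 0 to 1 without the muscle-high libraries and was 0 to 1 on leaving out 1 library. For the rhythm common to both it fell from 2 to 1 with no filter (Gja4, adjusted p 0.0829) and to 0 without the Gh-high libraries, and was 1 to 3 on leaving out 1 library, where Gja5 passed in 6 fits. Fits with fewer libraries also differ in power, and the unfiltered fit adjusts over more genes. Causes of these changes, in either direction, were not tested. Gjc1 passed the common rhythm in 36 of 36 such fits and Gja4 in 24. The count of all genes called over the mean moved from 162 to 645 with DESeq2, to 11 without the Gh-high libraries and to 21 to 302 on leaving out 1 library. At single times it moved from 0 to 77 (CT04), 7 (CT12) and 20 (CT16), and from 1 to 183 (CT20), with DESeq2, and on leaving out 1 library reached at most 10, 2, 24 and 141. For the rhythm in ADX it moved from 2120 to 1411 with no filter and to 1334 to 2430 on leaving out 1 library.

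Replicate numbers did not pair the libraries: deviations from group means of same-numbered libraries had a mean correlation of -0.0141 over 198 pairs (-0.449 to 0.289, above 0.1 in 42), and 11 of 36 libraries correlated best with their own number. With the replicate number as a block, 0 members passed over the mean, at each time and for the interaction, 1 in sham, 0 in ADX, 2 for the common rhythm and 0 for its difference, as without it. Depth limits Gja5 and Gja4 most, with as few as 23 and 58 reads in a library.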
